A study of Homo sapiens with 12 samples.

Results

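The histone genes considered here are the rows of the deposited expression table whose symbol starts with H1-, H2AC, H2BC, H3C or H4C followed by a digit. That rule found 64 of the 16383 genes in the table, and 63 of them are reported: 8 of the H1 class, 14 of H2A, 16 of H2B, 11 of H3 and 14 of H4. Of these 63, 22 had a mean of at least 10 normalized counts over the 12 libraries and are described one by one, and the 41 below that level are described by counts, ranges and examples. Just under the limit lay H4C12 at 8.04 and H1-4 at 9.35, and just above it lay H2AC13 at 11.3 and H2BC15 at 11.5. A member scarce in some groups could reach the limit only through a group in which it was high, so every comparison is also given for the members with no such limit. H1-8 had no read in any library, which leaves 62 members that could be tested. A further 10 protein-coding genes of RefSeq have symbols that match the rule, among them H2AC19, H2AC21, H2BC18 and H3C15. They are not among the 16383 listed genes, so they could not be analysed.

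The libraries are poly(A)-selected RNA of IMR90 cells, a human lung fibroblast line with a limited replicative life, of the genotype labelled WT. Each of the 4 groups has 3 libraries. Prolif is the group labelled Proliferating, with no treatment. The cells of Sen_DMSO, Sen_Palbo and Sen_Ruxo all received 20 Gy of ionizing radiation within 10 min and were harvested on day 11. Sen_DMSO received the solvent DMSO, Sen_Palbo received 2 µM palbociclib, an inhibitor of the cell cycle kinases CDK4 and CDK6, and Sen_Ruxo received 2 µM ruxolitinib, an inhibitor of the kinases JAK1 and JAK2, each inhibitor given 4 times, on day 4 and then on days 6, 8 and 10. All libraries come from 1 cell line and the labels do not say whether the 3 libraries of a group came from separate cultures, so p-values measure the spread between these libraries, which may be technical. In bulk RNA, fewer cells that express a gene and less RNA per cell cannot be told apart.

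Most histone protein is made from gene clusters that are transcribed when DNA is copied. Messages of those clustered genes carry no poly(A) tail: they end just after a short RNA stem-loop, which is bound by the stem-loop binding protein SLBP and cut with the help of the U7 small nuclear RNP. Some of the same genes also hold poly(A) signals farther downstream, and polyadenylated forms have been described in cells that have left the cycle. A poly(A)-selected library captures the tailed forms and loses most of the others, so the values below describe captured RNA and not all histone message. H1-10, a linker histone known for expression outside S phase, is coded by a gene outside the clusters that makes an ordinary tailed message. The symbol rule takes it in, so it is kept apart below.

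The label of the gene group, polyadenylated clustered histone genes, holds for some of the members only. By the GENCODE 44 annotation of GRCh38, H1-8 and H1-10 lie on chromosome 3 and H4C16 on chromosome 12, away from the clusters on chromosomes 1 and 6. The frame of the histone stem-loop, which is GG, any 2 letters, CTTTT, any letter, AG, any 2 letters and CC, was searched on the coding strand in the 200 bases after the stop codon. It occurred in 58 of the 63 members (92.1%) and in 70 of 20033 protein-coding genes (0.349%). Of the 22 described members, 20 held it, and H1-10 and H3C6 did not. Among the rest, H1-8, H2BC10 and H4C13 lacked it. The same 16 letters were shared by 34 members of the H1, H2A, H2B and H3 classes, another form by 8 members that include H2BC12, H2BC5, H2BC4 and H2BC11, and a further form by 10 members, all of them H4 genes. Shown next are the stem-loop letters of the 6 abundant clustered members and of H4C8, with 5 flanking bases on each side, 5′ to 3′ on the coding strand, as DNA. Capitals mark the 16 letters that match the search.
H1-2: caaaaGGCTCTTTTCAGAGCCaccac
H2BC12: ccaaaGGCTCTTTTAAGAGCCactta
H2BC21: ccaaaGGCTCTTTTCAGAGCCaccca
H2AC6: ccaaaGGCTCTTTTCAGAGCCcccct
H2BC5: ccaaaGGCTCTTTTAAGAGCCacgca
H2BC4: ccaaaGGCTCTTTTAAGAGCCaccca
H4C8: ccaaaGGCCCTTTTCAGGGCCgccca
The 16 letters lie at chr6:26055744-26055759 on the minus strand for H1-2, at chr6:27146366-27146381 on the minus strand for H2BC12 and at chr1:149886188-149886203 on the minus strand for H2BC21. For H2AC6 they lie at chr6:26124669-26124684 on the plus strand, for H2BC5 at chr6:26158587-26158602 on the plus strand, for H2BC4 at chr6:26123472-26123487 on the minus strand and for H4C8 at chr6:26285131-26285146 on the minus strand. They begin 28 bases after the stop codon in H1-2, 37 in H2BC12, H2BC5 and H2BC4, 57 in H2BC21, 44 in H2AC6 and 42 in H4C8. A match is a string of letters, and processing at these positions was not measured.

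The annotation also shows where longer messages are known. A 3′ end 100 or more bases past the stop codon is annotated for 12 of the 22 described members (54.5%) and for 5 of the 41 others (12.2%). The 12 are H1-10, H2AC6, H2AC25, H2BC4, H2BC5, H2BC11, H2BC12, H2BC15, H2BC21, H3C6, H3C10 and H4C8. For H2BC21 that end lies 1801 bases past the stop codon, for H3C6, which lacks the stem-loop letters, 1908 bases, and for H2BC12 RefSeq places it 8125 bases away. H1-2 is the exception among the abundant clustered members: its longest annotated end lies 47 bases past the stop codon. The minimum of 100 bases was set after the annotation had been read.

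Members are not independent of each other as measured. The canonical GENCODE transcript of each was broken into all words of 50 bases, and each word was looked for in all other annotated genes. Long 3′ ends outside that transcript, among them those of H3C6 and H3C10, were not searched. H2AC18 shared 100% of its words with H2AC19, H2AC20 or H2AC21, and H2BC4 shared 100% with other genes, among them an unnamed gene that overlaps it on the other strand. H3C4 shared 96.5% with a read-through gene that contains it, H2AC13 63.5% with H2AC14, H2BC12 57.2% with 12 genes and pseudogenes, and H4C8 37.2% with an unnamed non-coding gene that overlaps it on the opposite strand. The shares were 24.3% for H2BC15, 17.1% for H1-10, all with its antisense gene H1-10-AS1, and 10.1% for H2BC5. No word was shared by 7 of the 22, which are H1-2, H2AC8, H2BC8, H2BC9, H3C6, H3C10 and H4C5. How reads from shared or overlapping sequence were assigned is not given in the sources used here, so the values of the 9 members above 10% are uncertain in how they are split between genes. Identical proteins are also common: 13 of the H4 members code for the same protein of 103 residues and 10 of the H3 members for the same protein of 136.

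The libraries held between 14106799 and 21762412 reads over the listed genes, which were recovered as whole numbers from the normalized counts. Of the 3 Prolif libraries, the one with the code A126 was highest for 22 of the 41 scarce members and for 13 of the 22 described. The 8 fibroblast markers were above 0 in every group and summed to 8.14e+05 to 8.48e+05 in Prolif, 4.04e+05 to 4.14e+05 in Sen_DMSO, 6.47e+05 to 6.80e+05 in Sen_Palbo and 5.11e+05 to 5.15e+05 in Sen_Ruxo, so their level also moves with the groups. Sums of the 6 immune markers ran from 544 to 1308, highest in Sen_DMSO and made up mostly of CD68. CD14 stood at 4.03 ± 2.63 in Prolif, 28.2 ± 1.92 in Sen_DMSO, 13.01 ± 5.15 in Sen_Palbo and 15.96 ± 4.59 in Sen_Ruxo, and CD68 and CD14 both rose in Sen_DMSO and fell in Sen_Palbo, while the means of PTPRC, LYZ, CD3E and MS4A1 were below 5 in every group. The 5 endothelial markers summed to 1681 to 4380.1, mostly from TEK, with CDH5 near 0. VWF stood at 5.04 ± 2.45 in Prolif and 19.1 ± 7.38 in Sen_DMSO. PECAM1 went from 2.07 ± 0.157 to 10.7 ± 1.765 and KDR from 0.346 ± 0.599 to 9.20 ± 1.09. The 6 epithelial markers summed to 1802.5 to 4236, mostly from KRT18, with SFTPC near 0. CDH1 stood at 0 in Prolif and 14 ± 4.52 in Sen_Palbo. KRT8, KRT18 and KRT19 were higher in Sen_Palbo than in Sen_DMSO, beside 26% of all genes, and EPCAM did not pass. The part of these genes' shifts in the results below was not tested.

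The first comparison asks how the histone genes differed between irradiated cells treated with solvent and proliferating cells. Of the 21 described members other than H1-10, 20 rose, and the linker histone gene H1-10 fell. Summed over these 21, the level was 673 ± 84.3 (SD, n = 3) normalized counts in Prolif and 5927 ± 161 in Sen_DMSO. The single libraries gave 637, 769.7 and 613 in Prolif and 5898, 6100.2 and 5783 in Sen_DMSO, so no Prolif library came near a Sen_DMSO library. H2BC12 alone made up 33.6% ± 1.68 of the members' sum without H1-10 in Prolif and 36.8% ± 0.757 in Sen_DMSO. The 6 most abundant clustered members together made up 68.1% ± 4.54 and 84.1% ± 0.279.

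**Figure D1:**
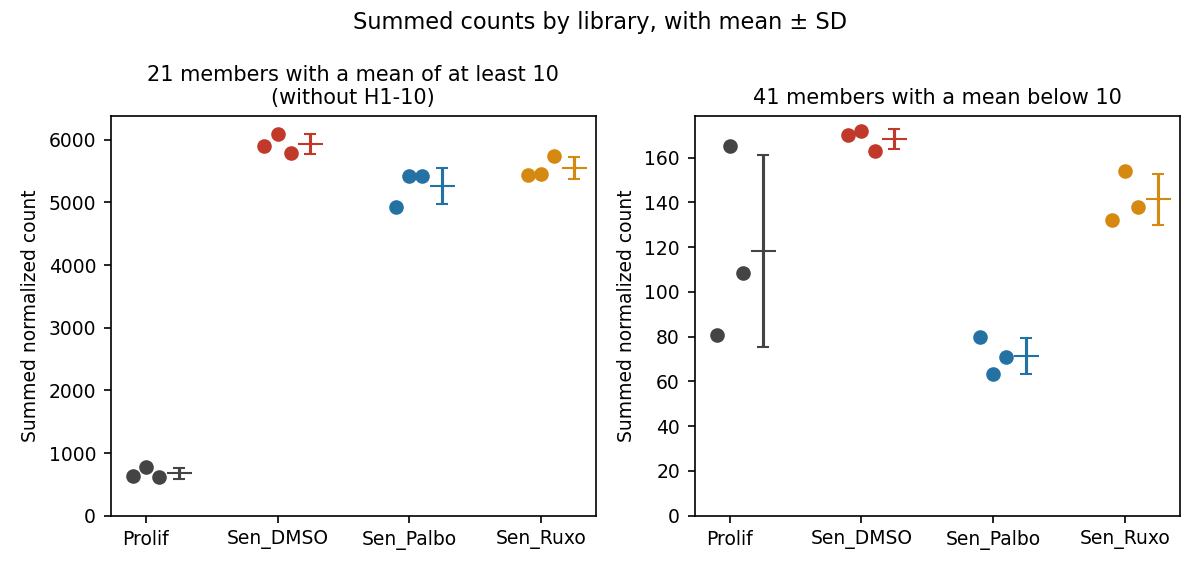
Summed normalized counts (linear axes from 0) in each of the 12 libraries, by group, for the 21 described members without H1-10 (left) and the 41 members with a mean below 10 (right); points are libraries and bars are mean ± SD. The left sums sit between 613 and 769.7 in Prolif and above 4923 in every irradiated library, while the right sums are lowest in Sen_Palbo, 63.5 to 79.7.

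Over all genes with a mean of at least 10, limma on log2(normalized count + 1) with Benjamini-Hochberg adjustment called 33% of 11242 genes higher in Sen_DMSO than in Prolif and 39.3% lower, at an adjusted p under 0.05. Of the 22 described members, 20 rose, H1-10 fell and H2BC9 did not pass. The members' median log2 difference was 2.50, beside -0.05 over all genes tested. Without the level limit, 32 of the 62 members rose, 6 fell and 24 did not pass, and the background was 30.7% of 15125 genes higher and 29.3% lower. The median was then 1.23 for the 62 members and 0.07 for the 40 of them with a mean below 10, beside 0.07 over all genes. Differences on this scale understate the change of genes with few reads.

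H1-2 codes for a linker histone of the main cluster on chromosome 6, and it is the gene by which the group was marked. Its normalized counts were 97.5, 134 and 80.9 in Prolif and 511, 553 and 469 in Sen_DMSO. The groups did not overlap, and the log2 difference was 2.31 ± 0.14 (SE), with an adjusted p of 4.69e-10 in limma. Among the other H1 genes, H1-4 stood at 0, 21.1 and 0 in Prolif and at 16.8, 7.10 and 17.3 in Sen_DMSO. It passed without the level limit (log2 difference 2.30 ± 0.87, adjusted p = 0.0332 in limma), although the Prolif library A126 lay above all 3 Sen_DMSO libraries. H1-5 went the other way, from 3.11, 16.6 and 3.81 in Prolif to between 0 and 2.31 in Sen_DMSO (log2 difference -1.91 ± 0.58, adjusted p = 0.0102).

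The linker histone gene outside the clusters went the other way. H1-10 was at 1969, 2412 and 2174 in Prolif and at 599.8, 719.8 and 764 in Sen_DMSO, a log2 difference of -1.65 ± 0.09 with an adjusted p of 2.72e-10 in limma. The groups did not overlap. H1-10 was 73.5% ± 1.51 of the summed value of the 63 members in Prolif and 10.2% ± 1.20 in Sen_DMSO.

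The H2B class held H2BC12, the clustered member with the highest level per length of GENCODE exon. H2BC12 was at 252, 297 and 245 in Prolif and at 2191, 2358 and 2182 in Sen_DMSO, 8.47-fold higher on the log2(value + 1) scale (log2 difference 3.08 ± 0.08, adjusted p = 4.70e-14 in limma). H2BC21, on chromosome 1, was at 104, 81.0 and 75.2 in Prolif and at 1149, 1149 and 1073 in Sen_DMSO (log2 difference 3.70 ± 0.10). H2BC5 was at 28.0, 33.3 and 31.4 and then at 277, 283 and 244 (3.08 ± 0.11). In each of these genes every Sen_DMSO library lay far above every Prolif library. H2BC4 was at 12.5, 11.1 and 9.52 in Prolif and at 229.6, 238 and 260.2 in Sen_DMSO, a 20.3-fold difference. H2BC8, which codes for the same protein as H2BC4, was at 7.26, 17.7 and 13.3 and then at 85.1, 128 and 106, a log2 difference of 3.02 ± 0.25. H2BC8 shares no 50-base word with another gene, whereas H2BC4 does throughout its canonical transcript. H2BC11 rose by 2.48 ± 0.23 on the log2 scale and H2BC15 by 1.37 ± 0.44. The call of H2BC15 is lost without the Prolif library A125 (adjusted p = 0.0603), without A116 of Sen_DMSO (0.0648) and under quantile normalization (0.483). H2BC9 was at 15.6, 14.4 and 15.2 in Prolif and at 13.9, 20.1 and 17.3 in Sen_DMSO, so its groups overlapped (log2 difference 0.16 ± 0.38, adjusted p = 0.719).

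All 7 described H2A members rose. H2AC6 was at 32.2, 47.7 and 38.1 in Prolif and at 742, 715 and 761 in Sen_DMSO, 18.6-fold higher (log2 difference 4.22 ± 0.11, adjusted p = 6.10e-14 in limma). H2AC18 was at 4.15, 8.87 and 4.76 and then at 93.0, 86.4 and 78.6, a log2 difference of 3.71 ± 0.23, and its value may hold reads of the genes that share its sequence. H2AC13 (2.70 ± 0.42), H2AC8 (2.39 ± 0.35), H2AC25 (2.10 ± 0.28) and H2AC15 (1.63 ± 0.43) followed on the log2 scale, the last of them lost under quantile normalization (adjusted p = 0.172). H2AC11 had the smallest rise of those that passed: 20.8, 16.6 and 14.3 in Prolif and 31.7, 28.4 and 30.1 in Sen_DMSO (log2 difference 0.78 ± 0.25, adjusted p = 0.0120). Its groups did not overlap either, but the call is lost under quantile normalization (adjusted p = 0.728).

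The core histones H3 and H4 were scarcer in these libraries. H4C8 was at 1.04, 7.76 and 3.81 in Prolif and at 119.8, 139.7 and 150.3 in Sen_DMSO, a log2 difference of 4.96 ± 0.36 (adjusted p = 4.79e-09 in limma). That is a few reads per Prolif library against more than 100 in each Sen_DMSO library, so the ratio itself is imprecise. H4C5, which codes for the same protein, was at 4.15, 12.2 and 2.86 in Prolif and at 33.7, 37.9 and 35.8 in Sen_DMSO (2.52 ± 0.43). The H3 genes H3C4 (3.10 ± 0.36), H3C10 (2.32 ± 0.32) and H3C6 (2.30 ± 0.32) also rose, each with no overlap between the groups.

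Below a mean of 10, the members did not move together: 12 of 40 rose and 5 fell, shares that lie near or below the background of all genes. H4C16, away from the clusters on chromosome 12, stood at 0, 1.11 and 0 in Prolif and at 15.8, 16.6 and 24.3 in Sen_DMSO. Set against the value that 3 reads would have in a Prolif library, it was at least 6.10-fold higher in Sen_DMSO. H3C12 fell, from 7.26, 17.7 and 19.0 in Prolif to 2.97, 2.37 and 4.63 in Sen_DMSO (log2 difference -1.79 ± 0.46, adjusted p = 0.00355 in limma). It codes for the same H3 protein as H3C4, H3C6 and H3C10, which rose. H2BC14, H4C3 and H4C6 also fell, by 1.33, 1.27 and 1.19 on the log2 scale. Summed over the 41, Prolif stood at 80.9, 165.2 and 109 and Sen_DMSO at 170.2, 171.7 and 163, so the highest Prolif library, A126, lay just above the lowest Sen_DMSO library.

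**Figure D2:**
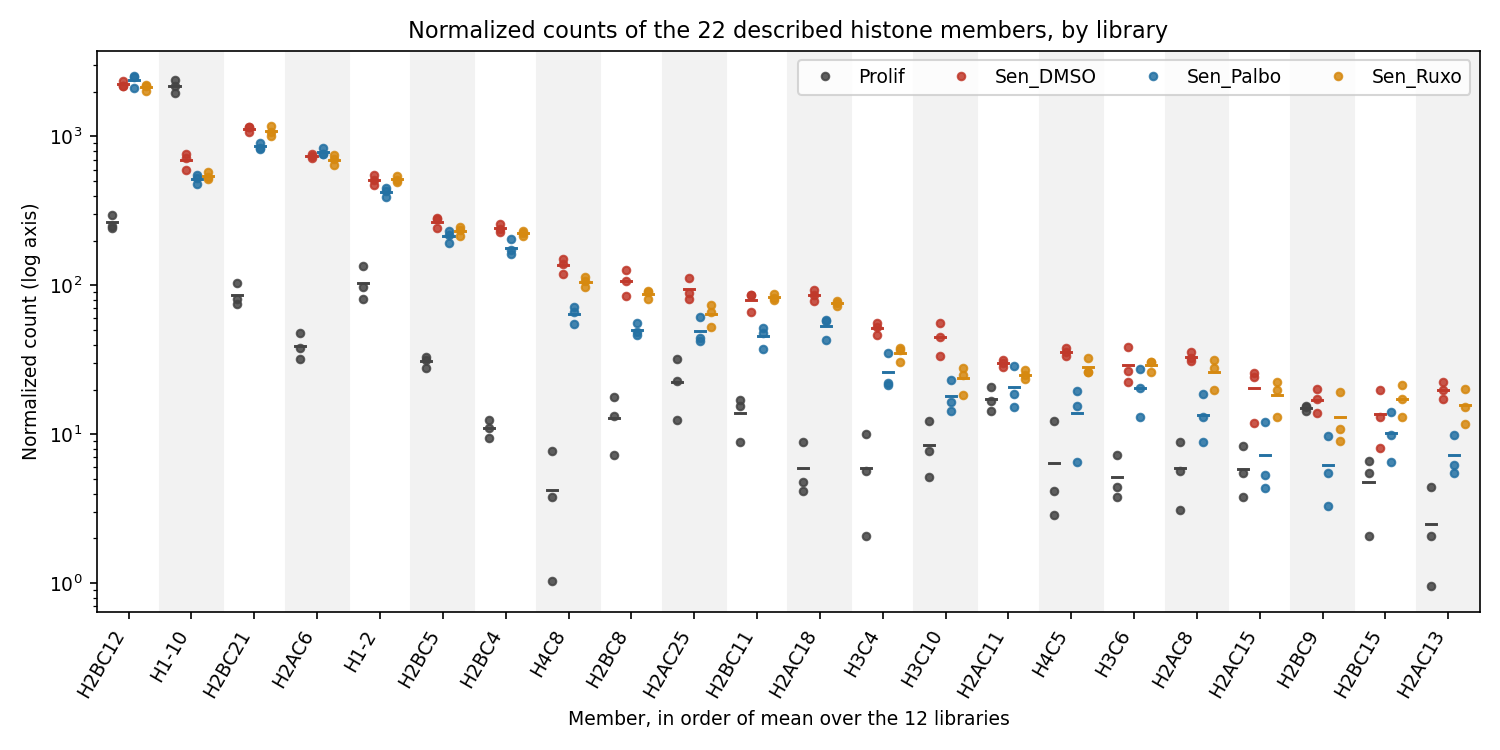
Normalized counts of each of the 22 described members in every library (log axis), coloured by group; each point is 1 library. H2BC12 has its Prolif points at 245 to 297 beside 2182 to 2358 in Sen_DMSO, and H1-10 has its Prolif points highest.

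Levels can be set against each other only per length. Per kilobase of annotated exon, H2BC12 stood at 535 ± 57.4 normalized counts in Prolif and 4532 ± 200.7 in Sen_DMSO. H1-10 stood at 1441 ± 146 and then 458 ± 56.1, H1-2 at 143 ± 37.3 and then 699 ± 57.0, H2BC21 at 39.0 ± 6.79 and then 505 ± 19.8, and H2AC6 at 23.6 ± 4.70 and then 443 ± 13.8. On these exon lengths the order changed between the groups: H1-10 was above H2BC12 in Prolif and below it in Sen_DMSO. The value of H2BC12 rests on an annotated exon of 495 bases, whereas RefSeq extends the gene far downstream. With the longer model the value per kilobase would be smaller, and H2BC12 might then not stand above H1-10 in Sen_DMSO.

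Many H2A and H2B genes stand head to head, with their starts close together on opposite strands. In that arrangement 1 stretch of DNA serves as promoter in both directions. The 3 gaps shown next belong to H2BC12 with H2AC12 and H2BC21 with H2AC20, where an abundant H2B gene faces a scarce H2A gene, and to H2BC4 with H2AC6, where both genes were abundant. They run along the plus strand, 5′ to 3′, from the start of the H2B gene on the minus strand to the start of the H2A gene on the plus strand. Capitals mark ATTTGCAT, CCAAT and TATAAA on either strand, and matches that overlap run together.
H2BC12 and H2AC12, chr6:27146859-27147105: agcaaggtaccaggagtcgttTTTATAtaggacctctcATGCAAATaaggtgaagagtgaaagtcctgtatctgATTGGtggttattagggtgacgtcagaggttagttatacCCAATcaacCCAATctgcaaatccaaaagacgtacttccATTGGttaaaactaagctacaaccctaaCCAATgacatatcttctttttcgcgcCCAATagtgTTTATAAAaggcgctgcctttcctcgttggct
H2BC21 and H2AC20, chr1:149886683-149886917: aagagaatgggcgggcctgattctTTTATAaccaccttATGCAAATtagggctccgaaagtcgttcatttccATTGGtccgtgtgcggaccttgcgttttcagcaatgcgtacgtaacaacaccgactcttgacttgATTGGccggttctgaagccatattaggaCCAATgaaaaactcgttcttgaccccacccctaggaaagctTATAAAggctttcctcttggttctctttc
H2BC4 and H2AC6, chr6:26123927-26124171: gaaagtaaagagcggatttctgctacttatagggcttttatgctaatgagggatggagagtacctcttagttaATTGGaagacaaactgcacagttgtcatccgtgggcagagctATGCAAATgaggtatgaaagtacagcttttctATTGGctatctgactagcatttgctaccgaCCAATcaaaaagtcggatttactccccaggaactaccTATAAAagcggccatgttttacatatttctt
Each gap held 1 octamer ATTTGCAT, the site of OCT1. CCAAT, the site of NF-Y, occurred 6 times in the first gap and 3 times in each of the others, and TATAAA 3, 2 and 1 times.

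Across several gaps the genes stood at levels far apart. Per kilobase of exon, H2AC12 stood at 1.57 ± 1.36 in Prolif and 6.54 ± 3.13 in Sen_DMSO, across the gap from H2BC12 at 4532. Its normalized counts were 1.04, 1.11 and 0 in Prolif and 1.98, 2.37 and 4.63 in Sen_DMSO, a few reads at most. H2AC20 stood at 7.26, 6.65 and 12.4 in Prolif and at 3.96, 5.92 and 3.47 in Sen_DMSO, across the gap from H2BC21, which rose. Part of the H2AC20 sequence is shared with H2AC18. H2BC12 and H2BC21 both have an annotated long 3′ end, and H2AC12 and H2AC20 have none. In the pair H2BC4 and H2AC6, both members have one and both rose, by 4.35 and 4.22 on the log2 scale. In 2 further pairs the H2A gene stood above its H2B neighbour in Sen_DMSO: per kilobase, H2AC25 at 50.9 ± 9.06 beside H2BC26 at 1.00 ± 0.474, and H2AC13 at 40.2 ± 5.20 beside H2BC13 at 2.195 ± 3.801. H2AC15 at 41.6 ± 15.4 per kilobase also stood above H2BC15 at 3.20 ± 1.38, but the exon model of H2BC15 is 4265 bases long beside 496, and the normalized counts overlapped, at 25.7, 11.8 and 24.3 for H2AC15 and 19.8, 13.02 and 8.09 for H2BC15. H2BC11 and H2AC11 stood close together per kilobase in Sen_DMSO, at 76.2 ± 11.1 and 61.0 ± 3.31, but on exon models of 1046 and 493 bases. In Prolif they stood in the other order, at 13.25 ± 4.20 and 34.9 ± 6.64 per kilobase. Either side of a pair could thus be the one captured at the higher level.

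**Figure D3:**
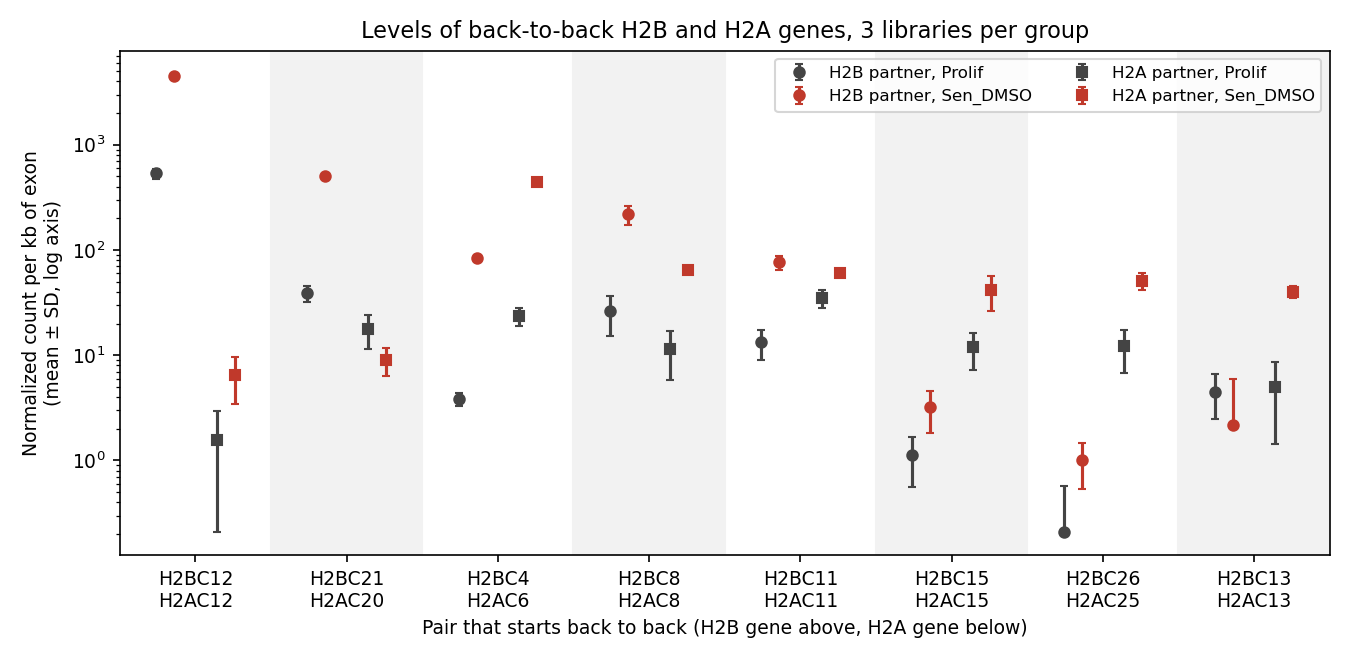
Normalized counts per kilobase of exon (log axis) in Prolif and Sen_DMSO for the members of 8 head-to-head pairs of H2B (circles) and H2A (squares) genes, as mean ± SD of 3 libraries; a lower bar that would reach 0 is not drawn. H2BC12 lies at 4532 in Sen_DMSO while its neighbour H2AC12 lies at 6.54.

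Over the 58 members found in the RefSeq promoter table, the 250 bases before the start held the octamer ATTTGCAT on either strand in 22 genes (37.9%), beside 1.66% of all 27305 promoters. It occurred in 9 of 13 H2A and 12 of 16 H2B members, in 1 of 9 H3 members and in no H1 or H4 member. That H3 member was H3C4, whose RefSeq model starts at the same base as H2AC7. Its hit thus lies between H2AC7 and H2BC7, and the bases before its 503-base GENCODE exon were not searched. CCAAT occurred in 82.8% of members and 33.0% of all promoters, TATAAA in 63.8% and 11.1%, and AAACACA, the H1 box, in 6 of 8 H1 members and 4.95% of all promoters. These letters describe the promoters as a class, and binding was not measured.

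The second comparison asks what palbociclib did to these genes in irradiated cells. In Sen_Palbo most described members were lower than in Sen_DMSO, by less than most of them had risen after irradiation. Of the 3 most abundant clustered members, H2BC21 fell and H2BC12 and H2AC6 did not pass. The limma fit called 22.3% of 11242 genes lower and 26% higher. Of the 22 described members, 16 fell and none rose, with 6 not passing. At an unadjusted p under 0.05, 17 were lower and none higher, and edgeR's quasi-likelihood test and DESeq2 on the whole reads each called 17 lower and 0 higher. The median log2 difference was -0.74, beside 0.02 over all genes tested. Without the level limit, 21 of 62 members fell and none rose, beside 18.5% and 18.7% of all genes. The count of 16 fell to 11 without the Sen_DMSO library A116 or the Sen_Palbo library A120 and to 4 under quantile normalization. Scaling every library to the same total moves the median of all genes by -0.23 (log2) here and gave 18.

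The abundant clustered members fell little or did not pass. H2BC21 was at 842, 828 and 902 in Sen_Palbo, below all 3 Sen_DMSO libraries (log2 difference -0.39 ± 0.10, adjusted p = 0.00468 in limma). H2BC4 was at 205, 162 and 172 (-0.44 ± 0.13, adjusted p = 0.0117) and H2BC5 at 193, 218 and 234 (-0.32 ± 0.11, adjusted p = 0.0302). These falls leave each gene far above its level in Prolif. Of the 16 calls, those of H2BC21, H2BC8 and H1-10 (3 of 16) held under every alternative run other than a minimum of 2-fold. H2BC8 met that minimum, and H2BC21 and H1-10 did not. The call of H2BC5 is lost with no level limit (adjusted p = 0.051), under quantile normalization (0.192) and without A116, A117, A119 or A120, and that of H2BC4 under quantile normalization (0.075) and without A118 or A120. H1-2 was at 389.5, 449.9 and 432, lower than every Sen_DMSO library but not past the test (-0.27 ± 0.14, adjusted p = 0.118). H2BC12 was at 2129, 2536 and 2497, which overlaps Sen_DMSO (0.09 ± 0.08, adjusted p = 0.394). H2AC6 was at 762, 843 and 761, all above Sen_DMSO by a margin smaller than the spread (0.09 ± 0.11, adjusted p = 0.524). Both signs turn when every library is scaled to the same total, with log2 differences of -0.14 for H2BC12 and -0.13 for H2AC6.

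Larger falls were found among members with fewer reads. H4C8 was at 66.4, 54.7 and 72.0 in Sen_Palbo beside 119.8 to 150.3 in Sen_DMSO (log2 difference -1.08 ± 0.36, adjusted p = 0.0211 in limma). H4C5 was at 15.5, 6.57 and 19.5 beside 33.7 to 37.9 (-1.42 ± 0.43). H3C10 was at 14.4, 16.4 and 23.1 beside 33.7 to 55.6 (-1.27 ± 0.32, adjusted p = 0.00432). In each the groups stood apart. The call of H4C8 is lost with a pseudocount of 0.1 (adjusted p = 0.0632) and without A117, A118 or A120, and that of H4C5 under quantile normalization and without A120. H2BC8 was at 46.5, 55.8 and 48.9 (-1.05 ± 0.25, adjusted p = 0.00278), whereas H2BC4, with the same protein, fell by 0.44. H2BC9, which had not moved after irradiation, was at 3.32, 5.47 and 9.77 in Sen_Palbo (-1.42 ± 0.38, adjusted p = 0.00662). It was the described clustered member that also passed below its level in Prolif, by 1.26 ± 0.38 on the log2 scale (adjusted p = 0.00754). H2AC25, H2AC18, H2AC8, H2AC13, H2AC15, H2BC11 and H3C4 fell too, with log2 differences of -0.69 to -1.42. Of these, H3C4 is lost in 9 of 22 alternatives, among them those without A116, A117, A118, A119 or A121. Calls are also lost for H2AC18 without A116, A117 or A119, for H2AC15 without A116, A118 or A120 and for H2AC25 without A116. For H2AC15 the groups overlapped, 11.8 in the lowest Sen_DMSO library and 12.2 in the highest Sen_Palbo library. H2AC11, H3C6 and H2BC15 did not pass, with log2 differences of -0.55, -0.52 and -0.36.

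The members can be set side by side by their annotated 3′ end. Of the 11 with an end 100 or more bases past the stop codon, H1-10 left out, 7 fell in Sen_Palbo, with a median log2 difference of -0.44. Of the 10 without one, 8 fell, with a median of -1.17, beside 22.3% lower over all genes tested. Of these calls, only H2BC21 in the first set and H2BC8 in the second held under every alternative run other than a minimum of 2-fold. H2BC21 did not meet that minimum. In Sen_DMSO against Prolif the medians of these sets were 3.08 and 2.46. Of the 6 most abundant clustered members, 5 belong to the first set, so annotated end and level move together in these members, and the difference between the sets was not tested. The shares moved as well. H2BC12 made up 44.7% ± 1.92 of the members' sum without H1-10 in Sen_Palbo, and the 6 most abundant clustered members 91.0% ± 0.709, beside 36.8% and 84.1% in Sen_DMSO.

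**Figure D4:**
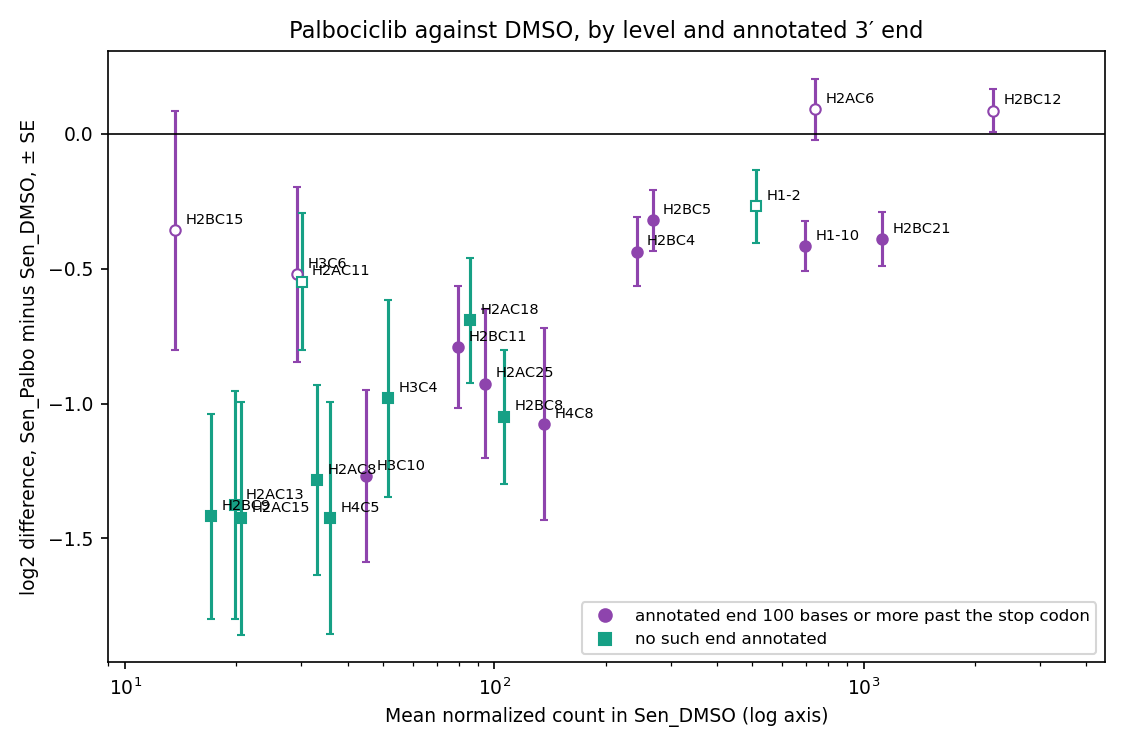
Log2 difference of Sen_Palbo from Sen_DMSO (± SE) for the 22 described members against their mean normalized count in Sen_DMSO (log axis); circles mark members with an annotated end 100 or more bases past the stop codon, squares the others, and filled symbols passed at an adjusted p under 0.05. The points run from -1.42 among members below 50 counts to 0.09 for H2BC12 and H2AC6, with H2BC21 between these in level at -0.39.

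H1-10 fell further in Sen_Palbo, to 478, 554 and 523 (log2 difference from Sen_DMSO -0.42 ± 0.09, adjusted p = 0.00191 in limma). For this gene the differences after irradiation and with the inhibitor have the same sign. Of the 15 other described members that fell in Sen_Palbo, all but H2BC9 had risen in Sen_DMSO against Prolif. Of all 21 described members other than H1-10, 20 had risen, so nearly any part of them would show the same. The 2 comparisons also share the Sen_DMSO libraries with opposite sign, so their directions are not independent.

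Among the 40 scarce members, 7 (17.5%) fell in Sen_Palbo and none rose, a share of falls near the 18.5% of all genes. H4C16 was at 3.32, 5.47 and 4.44 beside 15.8 to 24.3 in Sen_DMSO (log2 difference -1.87 ± 0.37, adjusted p = 9.69e-04 in limma), and H2BC7 at 3.32, 0 and 1.78 beside 7.92 to 13.02 (-2.39 ± 0.53, adjusted p = 0.00252). H3C12, which had fallen after irradiation, was at 0, 0 and 1.78, at least 4.75-fold below Prolif when set against 3 reads per library. The others were H2AC14, H2BC17, H2BC26 and H3C8. Summed over the 41 scarce members, Sen_Palbo stood at 79.7, 63.5 and 71.1, below every Sen_DMSO and Sen_Ruxo library and near the lowest Prolif library at 80.9.

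Against Prolif, Sen_Palbo still had 17 described members higher, 2 lower and 3 that did not pass, with 35.2% of all genes higher and 38.6% lower. The 2 lower were H1-10 and H2BC9. With no level limit, 21 of 62 members were higher and 12 lower, beside 28.5% and 28.9% of all genes. Among the scarce members alone 4 were higher, 10 (25%) were lower and 26 did not pass, shares below those of all genes. The Sen_DMSO, Sen_Palbo and Sen_Ruxo comparisons with Prolif share the Prolif libraries, and both inhibitor comparisons share the Sen_DMSO libraries.

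The third comparison asks the same of ruxolitinib. Few of these genes passed the test in Sen_Ruxo against Sen_DMSO. The limma fit called 3.42% of 11242 genes lower and 1.1% higher, and of the 22 members 1, H1-10, fell and none rose. The members' median log2 difference was -0.23, beside -0.003 over all genes tested, with 18 members below 0 and 4 above. Summed over the 21 described members other than H1-10, Sen_Ruxo stood at 5441, 5453 and 5747. Each of these sums lies below every Sen_DMSO library, the lowest of which was at 5783. At an unadjusted p under 0.05, 2 were lower and none higher, and edgeR and DESeq2 each called 1 lower and 0 higher. H1-10 was at 522, 574 and 533 in Sen_Ruxo (log2 difference -0.35 ± 0.09, adjusted p = 0.0453), a call that is lost without any of 7 of the 12 libraries. H1-2 was at 492, 545 and 512, which overlaps Sen_DMSO (0.02 ± 0.14, adjusted p = 0.976). H2BC12 at 2184, 2026 and 2208, H2BC21 at 1008, 1069 and 1178 and H2AC6 at 639, 753 and 709 overlapped Sen_DMSO as well. The lowest difference among the clustered members was that of H3C10, at 18.5, 25.2 and 28.0 in Sen_Ruxo (-0.87 ± 0.32, adjusted p = 0.171), with no overlap with Sen_DMSO. The groups stood apart, with Sen_Ruxo lower, for 8 of the 22 members, beside 17% of all genes. With no level limit 0 of 62 members fell and none rose in limma, beside 2.29% and 0.628% of all genes, and at an unadjusted p under 0.05 there were 4 lower and none higher.

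The difference between the inhibitors was tested directly. Sen_Palbo was below Sen_Ruxo for 6 of the 22 described members and above it for none, beside 17.6% and 22.8% of all genes, and the members' median was -0.48 beside 0.02. The 6 were H2AC15 (-1.32 ± 0.43), H2BC9 (-0.998 ± 0.38), H2AC8 (-0.94 ± 0.35), H2BC11 (-0.87 ± 0.23), H2BC8 (-0.79 ± 0.25) and H2BC21 (-0.34 ± 0.10). At an unadjusted p under 0.05, 10 were lower and none higher, and edgeR and DESeq2 each called 11 lower and 0 higher. H2BC11 was at 52.0, 37.2 and 48.0 in Sen_Palbo and at 82.6, 88.2 and 80.3 in Sen_Ruxo, and the latter overlap its values in Sen_DMSO. The count of 6 moved to 11 without the Prolif library A126, to 3 without A120 of Sen_Palbo or A122 of Sen_Ruxo and to 2 without A124 of Sen_Ruxo, so it rests on single libraries. With no level limit, 11 of 62 members were lower and H2AC12 alone was higher, beside 14.9% and 16.3% of all genes. H2AC12 was at 2.21, 2.19 and 3.55 in Sen_Palbo and at 0, 0.900 and 0 in Sen_Ruxo, too few reads for a ratio.

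Sen_Ruxo against Prolif gave 19 described members higher, 1 lower and 2 that did not pass, beside 32.6% and 39.5% of all genes. H2AC11 and H2BC9 did not pass. With no level limit 28 of 62 were higher and 4 lower, beside 30.5% and 29.2%.

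**Figure D5:**
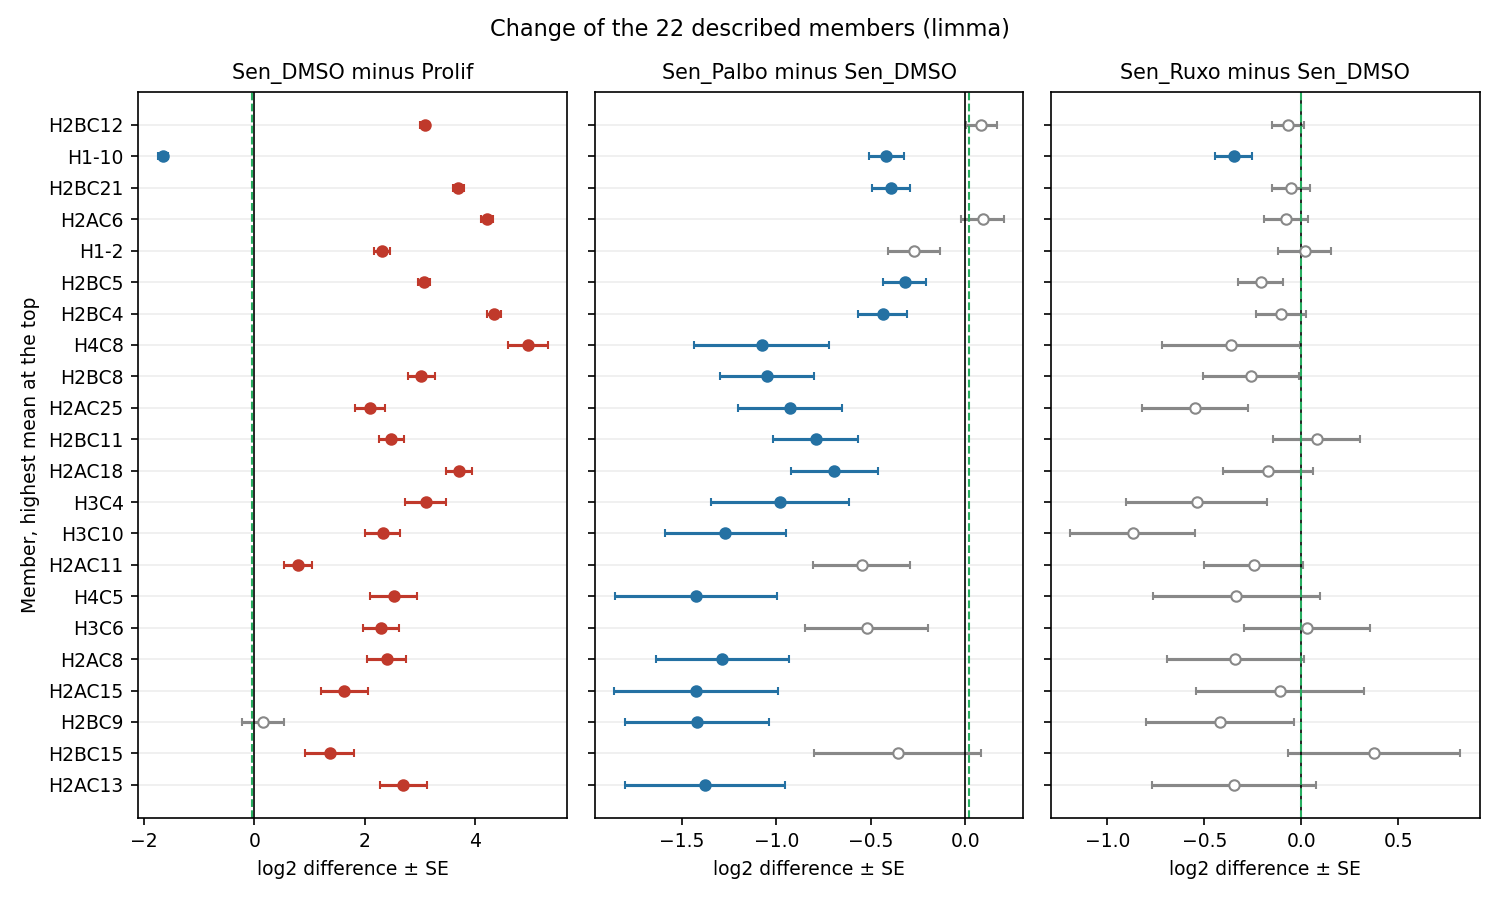
Log2 differences (± SE) of the 22 described members in 3 comparisons, 1 a panel, with filled symbols at an adjusted p under 0.05 and a dashed line at the median of all genes tested. The values of Sen_DMSO against Prolif run from -1.65 for H1-10 to 4.96 for H4C8, those of Sen_Palbo against Sen_DMSO from -1.42 to 0.09 and those of Sen_Ruxo against Sen_DMSO from -0.87 to 0.38.

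Other genes of the same biology were taken from lists set by function. Of 20 genes for stem-loop processing, 16 fell in Sen_DMSO against Prolif and none rose, with a median log2 difference of -0.78 beside -0.05 over all genes tested, of which 39.3% fell and 33% rose. In Sen_Palbo against Sen_DMSO 3 rose and 3 fell, below the 26% and 22.3% of all genes. SLBP, which binds the stem-loop, went from 1679 ± 69.5 to 974 ± 9.50 normalized counts (log2 difference -0.79, adjusted p = 2.73e-08 in limma) and stood at 1017 ± 96.0 in Sen_Palbo and 910.2 ± 31.7 in Sen_Ruxo, neither past the test against Sen_DMSO. The largest falls in that list were those of SNRPG, an Sm protein, by 1.42 and LSM11, a U7 protein, by 1.25 on the log2 scale. CASP8AP2, which acts in histone gene expression in S phase, fell by 0.93 in Sen_DMSO and by a further 0.26 in Sen_Palbo (adjusted p = 0.0481). Of 14 genes of the poly(A) machinery, 10 fell and none rose in Sen_DMSO, beside the same 39.3% and 33% of all genes, with a median of -0.49. NUDT21 fell by 1.15 and CPSF6 fell by 0.87.

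Of 12 genes for histone gene transcription, 7 fell and 2 rose in Sen_DMSO, beside 39.3% and 33% of all genes, with a median of -0.32. In Sen_Palbo against Sen_DMSO 7 fell and 1 rose, beside 22.3% and 26%. NPAT, the coactivator of the clusters in S phase, fell by 0.70 (adjusted p = 1.17e-04) and by a further 0.46 in Sen_Palbo (adjusted p = 0.00733). HINFP, the H4 promoter factor, rose by 0.44 and GON4L by 0.31, while CCNE2 fell by 1.77 and CDK2 by 1.27. All 13 S phase genes fell in Sen_DMSO, with a median of -2.31, and 12 of the 13 fell further in Sen_Palbo, with a median of -0.71. In Sen_Ruxo against Sen_DMSO 4 of the 13 fell, beside 3.42% of all genes. UHRF1 fell by 3.15 and GINS2 by 2.97 in Sen_DMSO. In the comparison in which these 13 genes fell, 20 of the 21 described members other than H1-10 rose, and of the 40 scarce members 12 rose and 5 fell.

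Of 22 histone chaperones tested, 18 fell in Sen_DMSO and none rose, beside 39.3% and 33% of all genes. Their median log2 difference was -1.16. HJURP fell by 2.81 and ASF1B fell by 2.80. Of 9 replacement histone genes, which sit outside the clusters, 8 fell and H2AJ rose, beside the same shares of all genes. Their median was -1.56. H2AJ, an H2A variant, went from 244 ± 24.4 to 612 ± 64.9 (log2 difference 1.32, adjusted p = 5.10e-09 in limma) and did not pass in Sen_Palbo against Sen_DMSO (0.07). CENPA fell by 3.58, H2AX by 2.45, H2AZ1 by 2.32 and H3-3B by 1.33. In Sen_Palbo 6 of the 9 fell further, beside 22.3% of all genes. Among the 6 were H2AZ1, by 0.43, and H3-3B, by 0.28. In Sen_DMSO against Prolif the 8 that fell had the sign of H1-10. In Sen_Palbo against Sen_DMSO, where H1-10 fell, H2AZ2 (-0.013) and H3-3A (0.13) did not pass. In Sen_Ruxo against Sen_DMSO 2 of the 9 fell, CENPA and H3-3B, beside 3.42% of all genes.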

How the data were processed

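Poly(A) RNA of 12 IMR90 libraries, 4 groups of 3, was measured by RNA-seq, per the labels. The values the authors deposited are normalized read counts per gene, a signal on the scale of counts divided by a factor per library. The submitters' processing notes name Trimmomatic 0.38.1, HISAT2 2.2.1, featureCounts 2.0.3, FastQC 0.74, MultiQC and DESeq2 2.11.40.8, and hg38 (GRCh38). How multi-mapped, overlapping or opposite-strand reads were counted is not given in the sources used here. All 160380 values above 0 of the deposited signal were whole multiples of 1 read's worth in their library (tolerance 0.01), so reads could be recovered.

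The main test was limma 3.58.1 (R 4.3.3) with a mean-variance trend on log2(value + 1), over all 12 libraries, for the 11242 of 16383 genes with a mean of at least 10, with Benjamini-Hochberg adjustment over all of them. A difference was called at an adjusted p under 0.05. The test was checked on simulated counts. The alternatives were a pseudocount of 0.1 or 5, no limit or a limit of 50 on the mean, a common total or a common upper quartile for every library, quantile normalization, no trend, only the groups compared, a minimum of 2-fold, each library left out, and edgeR 4.0.16 (TMM, quasi-likelihood) or DESeq2 1.42.0 on the recovered reads.

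Every reported member with a mean of at least 10 was described; 1 gene that matches the rule stayed in every fit and is not reported here. Of each other list, counts are given, and named are SLBP, NPAT, CASP8AP2, H2AJ, H2AZ1 and H3-3B and the 2 called genes with the largest rise and the 2 with the largest fall in Sen_DMSO against Prolif. Members and lists were chosen with earlier results of these data known. Libraries are named by the codes in the deposited table, which carry a group but no replicate number. Exons, stop codons and shared words come from GENCODE 44 on GRCh38, and promoters from RefSeq (58 of 63 members matched). Total reads per library over listed genes were 14106799 to 21762412, so 1 read was worth 0.772 to 1.18 normalized counts.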

Additional observations from a re-analysis of the deposited data

How the results depend on the processing

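The counts of described members that rose in Sen_DMSO against Prolif (20) went to 32 with no limit on low values, to 11 with a limit of 50 and to 9 when members with the same protein as another were left out; these limits change which members are tested. The 1 that fell became 6 with no limit. Leaving out each library in turn gave 19 to 20 higher and 1 to 1 lower. For Sen_Palbo against Sen_DMSO the 16 lower went to 9 with a limit of 50, 4 under quantile normalization, 7 without members of the same protein and 8 with a minimum of 2-fold, and ranged from 11 to 17 over the libraries left out. For Sen_Ruxo against Sen_DMSO the 1 lower went to 0 with no limit, the same upper quartile, quantile normalization, no trend or a minimum of 2-fold and to 4 with only the groups compared, and ranged from 0 to 1 over the libraries left out. The value was 0 without A127 of Prolif, A117 or A118 of Sen_DMSO, A121 of Sen_Palbo, or any library of Sen_Ruxo. For Sen_Palbo against Sen_Ruxo the 6 lower went to 10 with a pseudocount of 5, 11 with no limit, 3 with a limit of 50, 14 with the same total, 2 under quantile normalization, 11 with only the groups compared, 11 in edgeR, 11 in DESeq2, 3 without members of the same protein and 1 with a minimum of 2-fold, and ranged from 2 to 11 over the libraries left out. The 0 higher went to 1 with no limit, and ranged from 0 to 1, the 1 being without A119 of Sen_Palbo. For Sen_Palbo against Prolif the 17 higher went to 11 with a limit of 50 and 8 without members of the same protein (15 to 18 over the libraries left out), and the 2 lower to 12 with no limit and 1 with a limit of 50. For Sen_Ruxo against Prolif the 19 higher went to 11 and 9 in the same way (19 to 20), and the 1 lower to 4 with no limit and 2 under quantile normalization. Apart from fewer or more members being tested, the cause of these moves was not tested.

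Signs turned only for differences that had not passed the test. Under the same total these were H2AC6 (-0.13) and H2BC12 (-0.14) in Sen_Palbo against Sen_DMSO, H2AC6 (-0.028) and H2BC12 (-0.046) in Sen_Palbo against Sen_Ruxo, and H1-2 (-0.0086) in Sen_Ruxo against Sen_DMSO. Under quantile normalization they were H2BC9 (-0.60) in Sen_DMSO against Prolif, H2BC12 (-0.053), H2BC15 (0.28) and H3C6 (0.012) in Sen_Palbo against Sen_DMSO, H2AC11 (0.16) and H3C10 (0.09) in Sen_Palbo against Sen_Ruxo, H2AC15 (-0.12) in Sen_Palbo against Prolif and H2AC11 (-0.10) in Sen_Ruxo against Prolif. On recovered reads H3C6 in Sen_Ruxo against Sen_DMSO was -0.020 in edgeR and -0.015 in DESeq2. Over the libraries left out, H1-2 in Sen_Ruxo against Sen_DMSO ranged from -0.043 to 0.075, H2AC15 from -0.45 to 0.11, H2BC11 from -0.047 to 0.14 and H3C6 from -0.14 to 0.24, and in Sen_Palbo against Prolif H2AC11 ranged from -0.0096 to 0.42 and H2AC15 from -0.19 to 0.46.

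Scaling to the same total moved the median of all genes by 0.23 (log2) in Sen_DMSO against Prolif, -0.23 in Sen_Palbo against Sen_DMSO, -0.20 in Sen_Palbo against Sen_Ruxo and 0.20 in Sen_Ruxo against Prolif. Of the alternative values for called members, 469 kept their side of the threshold and direction and 5 lost the call in Sen_DMSO against Prolif, and 322 kept and 39 lost it in Sen_Palbo against Sen_DMSO. No paired analysis was possible because the columns of the deposited table carry no replicate number. With 1 to 20 reads per library, as for most members below a mean of 10, a change of a few reads decides a call.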
